A study of Mus musculus with 6 samples.

Results

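Described here are 10 genes of the TGF-beta and BMP pathway in mouse macrophages with reduced Kat7 RNA: the ligand gene Tgfb1, the receptor genes Tgfbr1, Tgfbr2, Acvrl1 and Bmpr2, the co-receptor gene Eng, the SMAD genes Smad3, Smad6 and Smad7, and the secreted protease gene Htra1. They were taken by gene name from a table of 18039 genes, and all 10 had enough counts to be among the 12483 genes tested. The set was chosen by the lower counts of Eng and Htra1 in this same comparison, so the fold changes of the 10 are given as a description, without p-values. The cells were bone marrow-derived macrophages, grown for 7 days in M-CSF at 20 ng/mL. Bulk RNA of 3 Ctrl and 3 KAT7KO libraries, labelled as biological replicates, was sequenced with paired ends. KAT7 is a lysine acetyltransferase that acts on histones. The sources used here do not give the deleted part of Kat7, the cells in which it was deleted, the alleles of the Ctrl mice, or the animals' age, and they do not say whether replicates came from separate animals. P-values therefore measure the spread between these libraries, which may be technical.

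Ligands of the TGF-beta family bind a type II receptor kinase, which then switches on a type I receptor kinase. In the TGF-beta branch (TGFBR2 with TGFBR1) the type I receptor phosphorylates SMAD2 and SMAD3, and in the BMP branch (BMPR2 with partners such as ACVRL1, also called ALK1) it phosphorylates SMAD1, SMAD5 and SMAD9. SMAD6 and SMAD7 are inhibitory SMADs, induced by the pathway, that block it from within. Endoglin, the product of Eng, is a membrane co-receptor that works with ACVRL1 and is best known from blood vessels. HTRA1 is a secreted serine protease that cleaves matrix proteins and has been reported to dampen TGF-beta family signalling. In macrophages TGF-beta is known for restraining inflammation and supporting tissue-resident states.

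The libraries held 19906726 to 20660090 counts. Kat7 itself stood at 73.2, 70.3 and 69.0 CPM in Ctrl and at 41.4, 42.2 and 38.2 CPM in KAT7KO, where CPM are counts scaled to library size with TMM factors. It was lower in every KAT7KO library, at 57.3% of Ctrl (log2 fold change -0.80, SE 0.06, adjusted p = 9.63e-07 by edgeR's quasi-likelihood test with Benjamini-Hochberg adjustment, as for every adjusted p here). The threshold for all genes was an adjusted p of 0.05. Ctrl replicate 1 stood apart from the other Ctrl libraries, with a mean chi-square per gene of 11.5 and 20.1 against them, where the other pairs within a genotype had 2.70 to 3.79. Calls that changed without it are given with each gene group. All 8 macrophage markers examined were detected, with Cd68 between 2613 and 2821 CPM over the 6 libraries. Of the 8, Itgam (-0.42) and Lyz2 (-0.68) fell. RNA of genes used as markers of other cell types was also present. Each of 12 stromal markers had some counts. Their summed level was 1090, 908 and 833 CPM in Ctrl replicates 1, 2 and 3, and ranged from 754 to 762 CPM over the KAT7KO libraries. Of the 11 tested, 5 fell (Col1a1, Col6a1, Pdgfra, Acta2 and Cxcl12). Col1a2, Col3a1, Lum, Pdgfrb, Thy1 and Postn did not pass. Of all genes tested, 13.2% were lower. Bulk RNA cannot tell fewer cells of a type from less RNA per cell.

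Of the 10 genes, Eng and Htra1 were lower in KAT7KO, and the other 8 did not pass the threshold with all libraries. Further receptor and SMAD genes, some of which fell or rose, are described below. The promoters of Eng and Htra1 are shown because these are the genes on which the set was chosen. Each runs from 250 bases before to 50 bases after the RefSeq start site in build GRCm38.p6, both on the plus strand, at chr2:32646345-32646644 for Eng and chr7:130935953-130936252 for Htra1. Capitals mark CAGAC, a sequence bound by SMAD3 and SMAD4, and GGGCGG, the GC box bound by SP1, on either strand.
Eng: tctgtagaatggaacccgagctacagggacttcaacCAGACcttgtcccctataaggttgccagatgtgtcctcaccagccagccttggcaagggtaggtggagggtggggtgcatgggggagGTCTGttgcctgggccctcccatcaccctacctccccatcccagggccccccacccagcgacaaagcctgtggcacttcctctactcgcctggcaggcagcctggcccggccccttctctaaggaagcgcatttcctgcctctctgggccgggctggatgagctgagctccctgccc
Htra1: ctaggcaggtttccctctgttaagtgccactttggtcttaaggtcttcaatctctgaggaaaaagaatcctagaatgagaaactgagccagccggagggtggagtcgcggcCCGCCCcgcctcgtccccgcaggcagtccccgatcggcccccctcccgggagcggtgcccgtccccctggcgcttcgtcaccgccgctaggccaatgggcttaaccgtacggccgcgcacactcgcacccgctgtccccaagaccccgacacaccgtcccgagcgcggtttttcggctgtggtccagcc
The window of Eng held CAGAC at positions -214 and -127 and no GC box, whereas that of Htra1 held 1 GC box at -139 and no CAGAC. No matches overlapped, and GGCGCC, a further SMAD-binding sequence, was in neither. Of 32851 promoters of this length in the RefSeq table, 49.6% held CAGAC, 35.7% held GGGCGG and 11.9% held GGCGCC. A match describes letters and not binding. Both windows were rich in G and C (63.3% and 65.0%, against a median of 52.7%). They differed in CpG content. The ratio of observed to expected CpG was 0.202 for Eng, above 28.9% of all promoters, and 0.904 for Htra1, above 87.6%. The table held promoters of 8 of the 10 genes. For Tgfb1, Tgfbr2, Bmpr2, Smad3 and Smad6 the ratio lay between 0.627 and 0.952, and the pair of Tgfbr1 promoters had 0.885 and 0.148.

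Eng, the co-receptor gene, stood at 36.3, 32.7 and 29.9 CPM in the Ctrl libraries and at 11.4, 10.5 and 11.4 CPM in the KAT7KO libraries. Every KAT7KO value was below every Ctrl value. The level went from 33.0 ± 3.24 to 11.1 ± 0.526 CPM (SD, n = 3), a log2 fold change of -1.57 (SE 0.09), or 33.7% of Ctrl with a 95% interval of 29.3% to 38.7%. Without Ctrl replicate 1, which held the highest value, the log2 fold change was -1.50. In the GENCODE annotation of GRCm38, 61 exon bases of Eng (1.51%) lie opposite exons of Fpgs. The strand setting of the counting is not given in the sources used here.

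Htra1, the secreted protease gene, stood at 94.0, 95.4 and 97.0 CPM in Ctrl and at 40.1, 40.3 and 38.7 CPM in KAT7KO. The replicates lay close together in both genotypes, and the genotypes did not overlap. Its level went from 95.4 ± 1.51 to 39.7 ± 0.891 CPM (SD, n = 3), a log2 fold change of -1.27 (SE 0.06), or 41.6% of Ctrl with a 95% interval of 38.3% to 45.2%. In the authors' deposited table the log2 fold changes of Eng and Htra1 were -1.56 and -1.26. Of the paralogs, Htra2, a mitochondrial protease gene, averaged 66.0 CPM over Ctrl and 68.2 CPM over KAT7KO, a log2 fold change of 0.05 (95% interval -0.09 to 0.19, adjusted p = 0.636). Htra3 was near 1 CPM (log2 fold change -0.69, adjusted p = 0.210), and the counts of Htra4 were below the filter. Of Htra2 and Htra3, 0 passed with edgeR, DESeq2 or limma-voom, and 0 had an unadjusted p under 0.05.

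**Figure D1:**
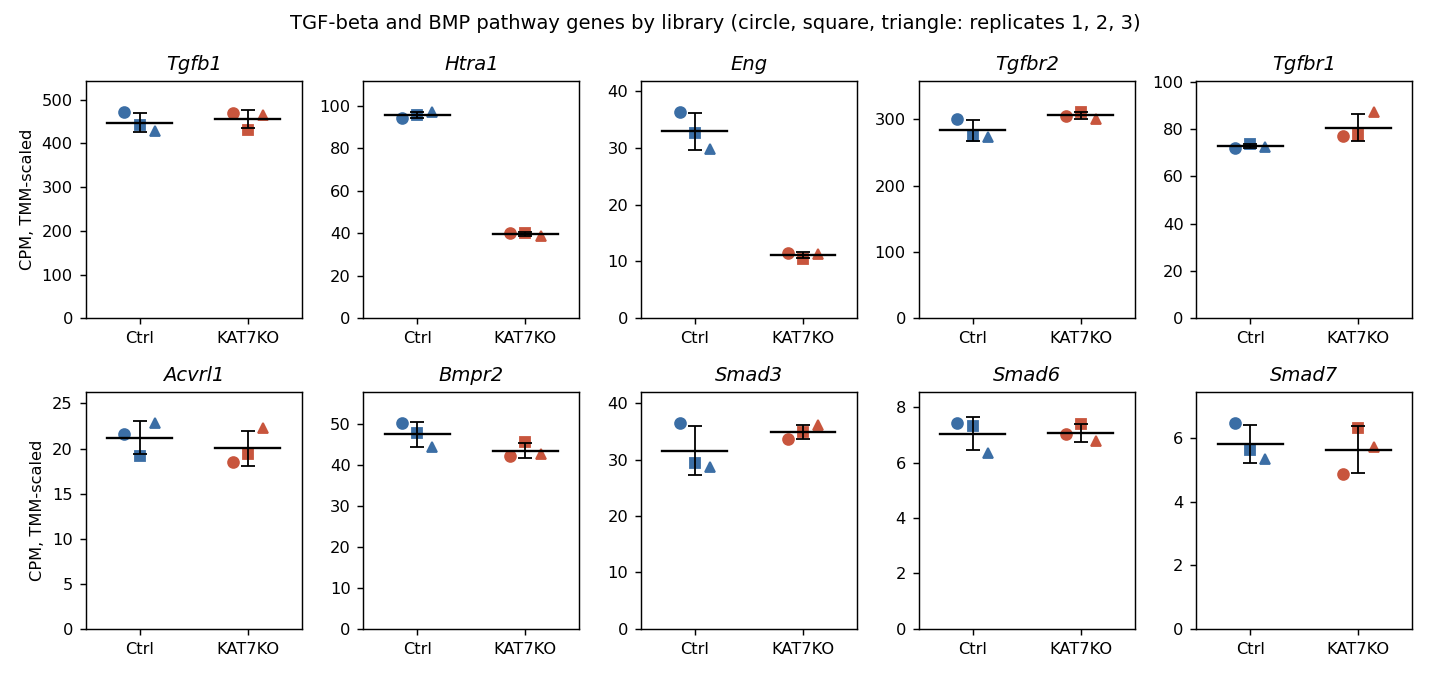
Scaled CPM (y axis, from 0, a scale of its own for each gene) of the 10 genes in the 3 Ctrl and 3 KAT7KO libraries. Points are libraries, long bars are means and error bars are 1 SD. The Eng values fall from 29.9 to 36.3 CPM down to 10.5 to 11.4 CPM and those of Htra1 from 94.0 to 97.0 CPM down to 38.7 to 40.3 CPM, while for Tgfb1, Acvrl1, Bmpr2, Smad3, Smad6 and Smad7 the genotypes overlap.

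Tgfb1, the ligand gene, was the most abundant of the 10. Its values were 472, 443 and 428 CPM in Ctrl and 469, 432 and 465 CPM in KAT7KO. The genotypes overlapped, and the level was 101.7% of Ctrl (95% interval 94.0% to 110.1%; log2 fold change 0.02, SE 0.05).

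None of the 4 kinase receptor genes passed the threshold with all libraries, and their levels lay between 91.6% and 110.8% of Ctrl. Tgfbr2, the type II TGF-beta receptor gene, stood at 301.2, 275 and 274 CPM in Ctrl and at 306, 311 and 301.2 CPM in KAT7KO. Its lowest KAT7KO value lay just above its highest Ctrl value, and the log2 fold change was 0.11 (SE 0.05). Tgfbr1, its type I partner, stood at 71.9, 73.8 and 72.6 CPM in Ctrl and at 77.2, 77.5 and 87.3 CPM in KAT7KO. Here too the genotypes did not overlap, KAT7KO replicate 3 being the highest, and the log2 fold change was 0.15 (SE 0.06). Without Ctrl replicate 1 both passed the threshold, at log2 fold changes of 0.14 for Tgfbr1 and 0.15 for Tgfbr2.

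Acvrl1, the type I receptor gene that works with endoglin, stood at 21.6, 19.2 and 22.9 CPM in Ctrl and at 18.5, 19.3 and 22.2 CPM in KAT7KO. The genotypes overlapped, with 1 library of each outside the other's range, at 94.4% of Ctrl with a 95% interval of 81.8% to 108.8%. Its exons share 127 bases (2.98%) with the antisense gene Gm16031 in the GENCODE annotation. Bmpr2, the type II BMP receptor gene, stood at 50.3, 47.8 and 44.2 CPM in Ctrl and at 42.1, 45.6 and 42.7 CPM in KAT7KO. KAT7KO replicate 2 lay within the Ctrl range, and the level was 91.6% of Ctrl with a 95% interval of 82.7% to 101.5%.

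Smad3, the TGF-beta signal transducer gene, stood at 36.5, 29.4 and 28.7 CPM in Ctrl and at 33.7, 34.9 and 36.1 CPM in KAT7KO. Ctrl replicate 1 held the highest value of all 6 libraries, so that the genotypes overlapped (log2 fold change 0.14, SE 0.09). Without that library the log2 fold change of Smad3 was 0.26 and passed the threshold. Smad6, an inhibitory SMAD gene of the BMP branch, stood at 7.44, 7.33 and 6.37 CPM in Ctrl and at 7.02, 7.41 and 6.77 CPM in KAT7KO. Smad7, which inhibits both branches, stood at 6.48, 5.62 and 5.34 CPM in Ctrl and at 4.86, 6.32 and 5.71 CPM in KAT7KO. Both overlapped between the genotypes. They had the fewest reads, 97 to 154 counts per library, and their intervals were the widest, from 83.3% to 120.7% of Ctrl for Smad6 and from 77.8% to 120.7% for Smad7. Changes that lie within these intervals could not be told from none with these libraries.

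**Figure D2:**
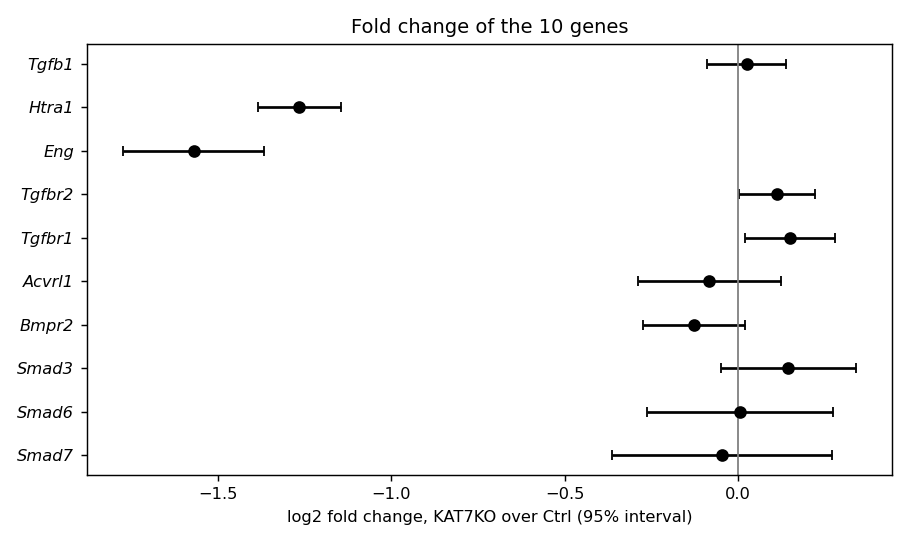
Log2 fold change of KAT7KO over Ctrl (x axis) of the 10 genes, as points with 95% intervals from the fit over all genes. Eng (-1.57) and Htra1 (-1.27) lie far to the left, and the remaining 8 lie between -0.13 and 0.15.

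In all, 2 of the 10 genes, Eng and Htra1, passed an adjusted p of 0.05, both lower, in a comparison where 23.9% of all genes tested passed (10.7% higher and 13.2% lower). The genotypes did not overlap for 4 of the 10, against 41.0% of all genes tested. The median log2 fold change of the 10 was -0.02 and that of all genes tested was 0.0023. Since the same comparison was used to choose the set, nothing is read from these counts.

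Levels were compared between genes per length, as FPKM deposited by the authors, whose implied gene lengths equalled the union of GENCODE exons within 0.0028%. The FPKM in Ctrl ran from 89.4 ± 6.47 for Tgfb1 through 34.9 ± 2.66 for Tgfbr2, 33.3 ± 0.289 for Htra1, 11.2 ± 0.189 for Tgfbr1, 8.20 ± 0.987 for Eng and 5.74 ± 0.917 for Smad3 (SD, n = 3). Below them stood Acvrl1 at 5.005 ± 0.444, Bmpr2 at 2.65 ± 0.225, Smad6 at 2.21 ± 0.223 and Smad7 at 1.29 ± 0.161 FPKM. Of the neighbours in this order, Tgfbr2 and Htra1, and Smad3 and Acvrl1, overlapped in their ranges over the 3 libraries. In KAT7KO no neighbours overlapped. Htra1, at 13.7 ± 0.295 FPKM, kept its place in the order but now lay just above Tgfbr1 (12.3 ± 0.886 FPKM). Eng, at 2.72 ± 0.129 FPKM, stood below Smad3 (6.25 ± 0.225 FPKM) and Acvrl1 (4.66 ± 0.461 FPKM) and next to Bmpr2 (2.40 ± 0.103 FPKM). Union lengths count every annotated exon, 17983 bases for Bmpr2, and a transcript may use fewer.

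**Figure D3:**
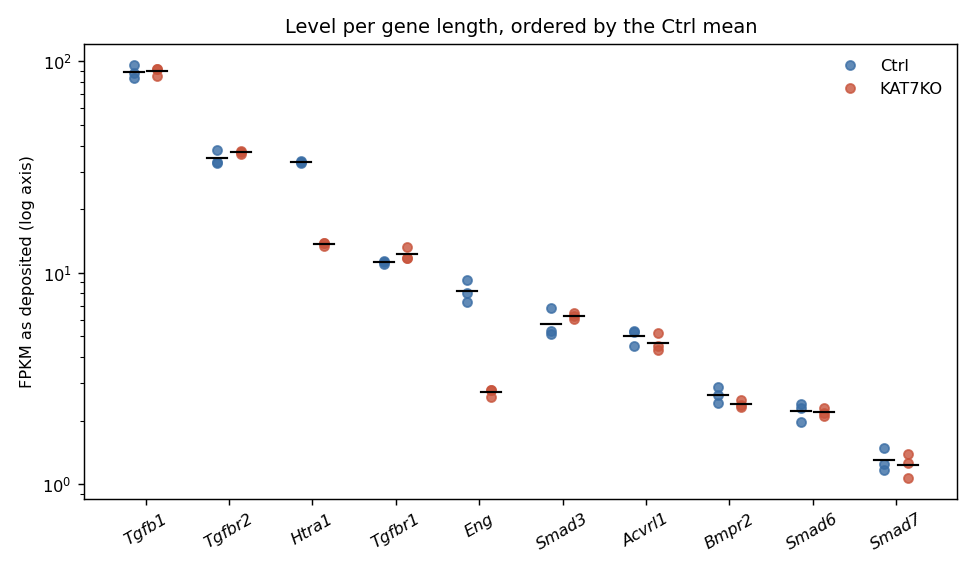
FPKM as deposited (log axis) of the 10 genes, ordered by the Ctrl mean. Points are libraries and bars are means. Eng moves from 8.20 FPKM, above Smad3 and Acvrl1, to 2.72 FPKM, below both, and Htra1 from 33.3 to 13.7 FPKM.

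The balance between the RNAs of receptor partners was followed as the ratio of FPKM within each library, which needs no scaling between libraries. Eng over Acvrl1 was 1.77, 1.79 and 1.38 in Ctrl and 0.651, 0.572 and 0.539 in KAT7KO. Per union length, Eng RNA thus exceeded Acvrl1 RNA in every Ctrl library and was below it in every KAT7KO library. The fall of Eng was used to choose the set, so this shift is a description of RNA. Protein was not measured. Eng over Tgfbr2 went from 0.235 ± 0.0128 to 0.0734 ± 0.00452, and Htra1 over Tgfb1 from 0.374 ± 0.0243 to 0.153 ± 0.00928 (SD, n = 3). Ratios among the other members moved less. Tgfbr2 over Tgfbr1 was 3.11 ± 0.202 in Ctrl and 3.04 ± 0.250 in KAT7KO, with overlap between the genotypes (SD, n = 3). Smad3 over Smad7 was 4.42 ± 0.168 and 5.11 ± 0.576, also with overlap. Tgfbr2 over Bmpr2 sets the TGF-beta type II receptor gene against the BMP type II receptor gene. It was 13.2, 12.7 and 13.6 in Ctrl and 16.0, 15.0 and 15.5 in KAT7KO, with no overlap.

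**Figure D4:**
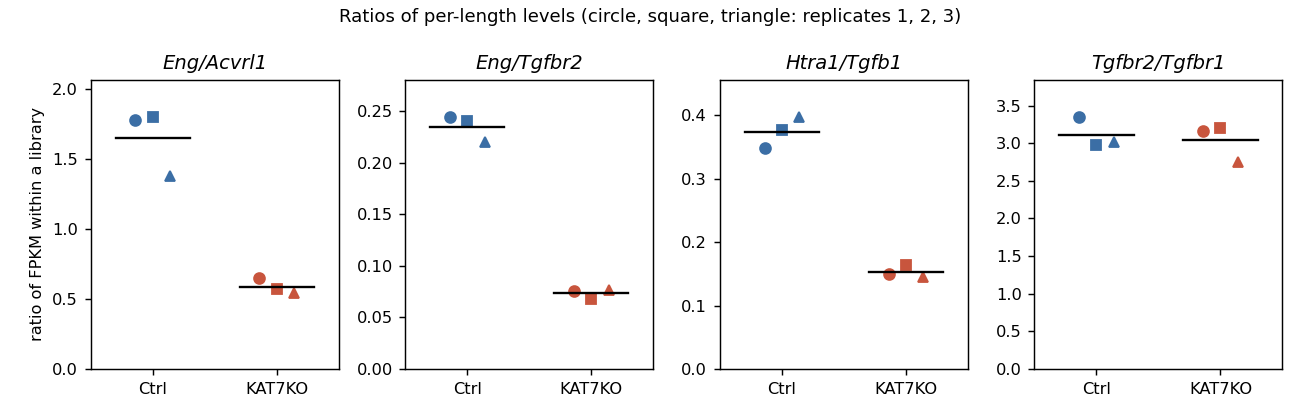
Ratio of FPKM within a library (y axis, from 0) for 4 pairs of genes in the 3 Ctrl and 3 KAT7KO libraries. Points are libraries and bars are means. Eng over Acvrl1 lies at 1.38 to 1.79 in Ctrl and at 0.539 to 0.651 in KAT7KO, whereas Tgfbr2 over Tgfbr1 overlaps.

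Further genes of the pathway were taken from 11 lists, 143 genes in all, of which 103 were tested. A further 23 had too few counts and 17 were not analysed here. Of the 103 tested, 32 fell, 8 rose and 63 did not pass, which is 38.8% past the threshold beside 23.9% of all genes tested. Their median log2 fold change was -0.18, beside 0.0023 for all genes tested. The lists were chosen with earlier results of these data known, so their shares past the threshold, here and below, are descriptions only. Of those tested, 3 (Bmp6, Smad9 and Htra3) reached the count filter in 1 genotype only, of which only Smad9 passed the threshold.

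TGF-beta is secreted in a latent form that other proteins store and release. Of these, 8 of the 13 measured genes of other ligands and latency fell, 0 rose and 5 did not pass. That is 61.5% past the threshold, beside 23.9% of all genes tested (median log2 fold change -0.40, beside 0.0023). Without Ctrl replicate 1, 2 of these genes were higher, Furin, a protease gene whose product cleaves the TGF-beta precursor (0.17, adjusted p = 0.000635), and the integrin gene Itgb5 (0.14, adjusted p = 0.00212). Itgb5 also passed with DESeq2 size factors and with limma-voom. Ltbp3, which encodes a protein that tethers latent TGF-beta to the matrix, stood at 104, 83.8 and 81.9 CPM in Ctrl and at 41.5, 39.7 and 48.1 CPM in KAT7KO (-1.06 on the log2 scale, SE 0.09, adjusted p = 7.64e-06). Lrrc32, also called GARP, which holds latent TGF-beta on the cell surface, fell from 3.78 ± 0.563 CPM to 0.969 ± 0.0688 CPM (n = 3, SD), which is -1.96 on the log2 scale (SE 0.23, adjusted p = 3.91e-05). Thbs1, whose product thrombospondin can activate latent TGF-beta, fell by 0.47 on the log2 scale (154 to 112 CPM, adjusted p = 0.00047). The integrin gene Itgav, whose product is a chain of the integrins that release TGF-beta, fell by 0.40 (81.3 to 61.5 CPM, adjusted p = 0.000866). The rest of those that fell, named here with their values already known, were the ligand gene Tgfb3 (-0.62), Ltbp2 (-0.53), Ltbp4 (-1.21) and Nrros (-0.18). Nrros encodes the anchor of latent TGF-beta on macrophages and microglia and was the most abundant of the 4 (279 to 247 CPM). It lost its call without Ctrl replicate 2 or any 1 KAT7KO library (adjusted p up to 0.114).

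Of 10 measured secreted modulators, 6 fell, 0 rose and 4 did not pass. That is 60% past the threshold, beside 23.9% of all genes tested (median log2 fold change -0.31, beside 0.0023). Fstl1, a secreted glycoprotein of the follistatin-like family, stood at 112, 112 and 118 CPM in Ctrl and at 72.4, 75.6 and 70.8 CPM in KAT7KO (log2 fold change -0.65, SE 0.05, adjusted p = 1.69e-06). Dcn, which encodes the proteoglycan decorin that binds TGF-beta, fell by 0.35 (149 to 118 CPM, adjusted p = 0.000218). The genes of the BMP-binding proteins BMPER and gremlin fell too, Bmper from 5.09 to 2.41 CPM (-1.08, adjusted p = 0.00108) and Grem1 from 4.35 to 2.02 CPM (-1.10, adjusted p = 0.00186). Crim1 (-0.67) and Bgn (-0.19), outside the naming rule, also fell, and Bgn lost its call with DESeq2 and limma-voom and without Ctrl replicate 2 or any 1 KAT7KO library. The antagonist genes Nog, Chrd and Fst had too few counts to be tested. Fibroblasts are also known to make decorin, biglycan and FSTL1. The 12 stromal markers summed to 833 to 1090 CPM over Ctrl, replicate 1 being the highest, and 754 to 762 CPM over KAT7KO. Of 11 tested, 5 were lower, beside 13.2% of all genes tested. The part of the stromal markers in these results was not tested.

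Of the other receptors and co-receptors, 6 of 12 measured fell, 0 rose and 6 did not pass. That is 50% past the threshold, beside 23.9% of all genes tested (median log2 fold change -0.25, beside 0.0023). Cd109, a membrane-anchored TGF-beta co-receptor gene, fell from 49.2 ± 6.11 CPM to 29.9 ± 1.06 CPM (n = 3, SD), which is -0.72 on the log2 scale (SE 0.09, adjusted p = 4.99e-05). The decoy receptor gene Bambi fell by 0.93, the betaglycan gene Tgfbr3 by 0.67 and Acvr1, a type I receptor gene of the BMP branch, by 0.44 on the log2 scale. Outside the naming rule, Rgma (-0.91) and Acvr1b (-0.20) fell, and each lost its call under several alternatives. Rgma overlapped between the genotypes. Bmpr1a, Acvr2a and Acvr2b did not pass, with log2 fold changes of -0.17, -0.20 and 0.16.

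Endothelial markers were examined because endoglin is a gene of blood vessels. Of 12 such markers, 9 had counts, and their summed level was 53.4 to 63.1 CPM over Ctrl and 55.9 to 57.5 CPM over KAT7KO. Most of that sum came from Vwf and Kdr, of which Kdr fell (-0.49, adjusted p = 0.00589). Vwf stood at 32.6 to 42.9 CPM and Kdr at 12.4 to 21.2 CPM over the 6 libraries, whereas Cdh5, Pecam1, Tek and Tie1 lay below 0.75 CPM in every library. Among progenitor markers, which are found on cells that also carry endoglin, 2 of 3 tested fell, Cd34 (-0.50) and Meis1 (-0.69). Hoxa9, also tested, did not pass (0.39, adjusted p = 0.5895). Kit, Flt3 and Myb were below the count filter, with highest values of 0.635, 0.199 and 0.0977 CPM over all libraries. The summed level of the 6 was 23.7 to 27.4 CPM over Ctrl and 16.7 to 18.5 CPM over KAT7KO. Most of that sum was Cd34, at 15.2 to 18.9 CPM in Ctrl and 11.4 to 13.2 CPM in KAT7KO. All 8 mitotic genes examined fell, from 94.0 to 99.4 CPM down to 57.5 to 60.6 CPM in sum. These marker counts stand beside 13.2% of all genes tested that were lower. The part of the endothelial, progenitor and mitotic genes in the fall of Eng was not tested.

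Of the 5 other SMADs 1 rose, 1 fell and 3 did not pass, or 40% past the threshold beside 23.9% of all genes tested. Without Ctrl replicate 3 Smad5 was lower as well (-0.28, adjusted p = 0.0461). Smad2 and Smad4, the remaining SMADs of the TGF-beta branch, had log2 fold changes of -0.03 (95% interval -0.17 to 0.11) and -0.01 (95% interval -0.15 to 0.13). In the BMP branch Smad1 rose from 20.3 ± 1.28 CPM to 25.4 ± 1.18 CPM (n = 3, SD), by 0.32 on the log2 scale (adjusted p = 0.0126). Smad5 had a log2 fold change of -0.22 (adjusted p = 0.111), and Smad9 fell from 1.201 to 0.501 CPM (-1.25, adjusted p = 0.0209). Smad9 reached the count filter in Ctrl only, where it was higher, so nothing is read from its call. Smad1 lost its call without KAT7KO replicate 1 or 2 (adjusted p up to 0.0630) and Smad9 without Ctrl replicate 1 or 2 or KAT7KO replicate 1 or 3 (adjusted p up to 0.0843).

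Of 21 measured intracellular modulators, 5 fell, 0 rose and 16 did not pass (median log2 fold change -0.12). The share past the threshold, 23.8%, was that of all genes tested (23.9%), so the count is no result about the group. Without Ctrl replicate 3, 2 were higher (Ppm1a and Strap), and without Ctrl replicate 1 Usp4 was lower (-0.16) and Nedd4l lost its call. Smurf1, which encodes a ubiquitin ligase for SMADs and receptors, stood at 60.5, 57.6 and 58.0 CPM in Ctrl and at 41.9, 42.0 and 43.1 CPM in KAT7KO (log2 fold change -0.47, SE 0.06, adjusted p = 7.45e-05). Its relative Smurf2 had a log2 fold change of 0.06 (adjusted p = 0.644). Dab2, an endocytic adaptor gene, fell by 0.44, the ubiquitin ligase gene Wwp1 by 0.23 and the corepressor gene Tgif1 by 0.24 on the log2 scale. Tgif1 lost its call without KAT7KO replicate 2 (adjusted p = 0.0509). Nedd4l, outside the naming rule, was the other that fell (-0.19, adjusted p = 0.0491), a call lost in 10 of 13 alternatives.

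Among activin, BMP and GDF ligands, 8 of 23 genes were measured, of which 2 fell and 1 rose. That is 37.5% past the threshold, beside 23.9% of all genes tested. Over the alternatives 0 to 3 were lower, with 0 without Ctrl replicate 2 or KAT7KO replicate 1, and without Ctrl replicate 1 Lefty1 was lower (-1.15, adjusted p = 0.00932) while Gdf3 lost its call. Gdf15, a divergent family member induced by cell stress, rose from 77.9 ± 7.98 CPM to 115.3 ± 1.65 CPM (n = 3, SD), a log2 difference of 0.57 with an SE of 0.07 (adjusted p = 4.36e-05). Bmp2 fell from 12.7 to 9.71 CPM (-0.39, adjusted p = 0.0127), a call lost without Ctrl replicate 2 or KAT7KO replicate 1 (adjusted p up to 0.0637). Gdf3 was at the threshold (-0.27, adjusted p = 0.0499) and missed it in 10 of 13 alternatives.

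Genes known to respond to TGF-beta went both ways, with 4 of 16 lower, 3 higher and 9 not past the threshold (median log2 fold change -0.13). The share past the threshold was 43.8%, beside 23.9% of all genes tested. Without Ctrl replicate 1, Bhlhe40 was higher (0.10) and Rhob lower (-0.14), and Ccn1 lost its call. Without KAT7KO replicate 2, 2 were lower. Klf10, an early TGF-beta-induced transcription factor gene, fell by 0.49 (31.5 to 22.4 CPM, adjusted p = 0.000758) and Tgfbi, which encodes a secreted matrix protein, by 0.40 (45.0 to 34.1 CPM, adjusted p = 0.00372). Cdkn1a, the gene of the cell cycle inhibitor p21 and also a p53 target, rose by 0.47 (63.9 to 88.3 CPM, adjusted p = 0.000146), and Vegfa rose by 0.31 (adjusted p = 0.0027). Outside the naming rule, Snai1 (-0.97) and Ccn1 (-0.28) fell and Junb (0.15) rose, and each lost its call under some alternatives.

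Of 6 measured BMP target genes 1 rose and 0 fell (median log2 fold change -0.06). Id2, a helix-loop-helix inhibitor gene, was at 219, 260.0 and 289 CPM in Ctrl and at 299.8, 303 and 299 CPM in KAT7KO (log2 fold change 0.23, adjusted p = 0.0480). Ctrl replicate 1 was the lowest, and the call was lost in 6 of 13 alternatives. Id1 (-0.36, adjusted p = 0.0976) and Id3 (0.10, adjusted p = 0.332) did not pass. Without Ctrl replicate 1, Id1 was lower and passed (-0.51, adjusted p = 0.000581). At 16.7% past the threshold, the group lay below the 23.9% of all genes tested. Of 7 measured genes that depend on TGF-beta in microglia, 2 rose and 0 fell. The share past the threshold, 28.6%, was near that of all genes tested (23.9%), so the count is no result about the group. P2ry13, a nucleotide receptor gene, was among those that rose (3.82 to 5.95 CPM, log2 fold change 0.64, adjusted p = 0.00716). Of 3 genes whose products shed endoglin or bind its cytoplasmic tail, 0 passed with edgeR, DESeq2 or limma-voom and 0 had an unadjusted p under 0.05. Mmp14, the sheddase gene, had a log2 fold change of 0.02 (95% interval -0.10 to 0.13), and Arrb2 and Gipc1 had log2 fold changes of 0.08 and 0.06.

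**Figure D5:**
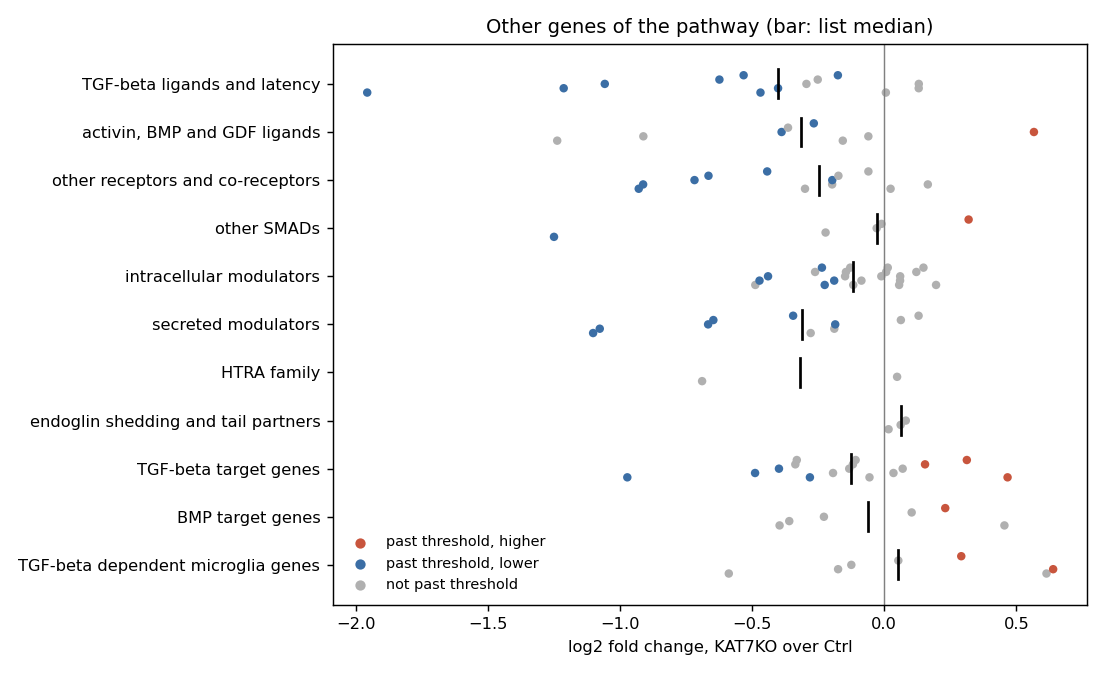
Log2 fold change of KAT7KO over Ctrl (x axis) of the 103 tested genes in 11 lists of further pathway genes. Points are genes, blue and red past the threshold and lower or higher, grey not past it, and bars are list medians. The latency genes (median -0.40) and secreted modulators (median -0.31) lie mostly left of 0, and the TGF-beta target genes lie on both sides.

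The genes whose pattern over the 6 libraries was most like that of Eng, by Euclidean distance of centred log2 CPM among 9346 genes with a mean of at least 5 CPM, were Mamdc2 (distance 0.145), Lpl (0.192) and Dnmt3aos (0.357). Lpl encodes lipoprotein lipase and went from 1425 to 523 CPM. Those most like Htra1 were Spsb4 (0.161), Cmtm4 (0.170) and Nkain1 (0.186), with log2 fold changes of -1.21, -1.24 and -1.25. With 3 libraries per genotype this likeness rests mainly on the size of the difference between genotypes.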

How the data were processed

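One table held all values for 6 libraries, and groups and replicate numbers came from the sample titles. The count columns are raw counts per gene, deposited by the authors without normalization. The FPKM columns were deposited by the authors and are named so per the file headers. The log2 fold change was deposited by the authors, and their p-value columns were deposited too and not used. FastQC, fastp, HISAT2, featureCounts, DESeq2 and GRCm39 stand in the submitters' processing notes, with no roles. Sequences came from RefSeq (GRCm38.p6) and no coordinates were carried between builds.

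Genes passing filterByExpr received TMM factors, and edgeR 4.0.16 gave the main test (glmQLFit, robust, then glmQLFTest; R 4.3.3), with Benjamini-Hochberg adjustment over 12483 genes and a threshold of 0.05. The SE is the log2 fold change divided by the square root of F. Intervals are at 95%. A count of 3 was 0.145 to 0.152 CPM.

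The members and lists were chosen with earlier results of these data known. Genes named were the 10 members, Kat7, up to 4 past the threshold per list in order of p, filled to 2 by level, and the 3 genes most like Eng and Htra1. Of these, 1 gene that the rule names is not reported here. Summed levels were also taken of marker lists for neutrophils (6.14 to 6.51 CPM in Ctrl, 10.6 to 12.0 CPM in KAT7KO), B cells (4.11 to 5.42, then 8.06 to 9.08 CPM) and megakaryocytes (50.1 to 68.5, then 36.6 to 39.7 CPM). The fit was tested on simulated counts with the same spread for every gene and no library set apart. Ctrl replicate 1 stands apart in these data, so that test does not vouch for the calls here. Alternatives were DESeq2 (1.42.0) as a test or for size factors, upper-quartile factors, no filter, a filter of 5 CPM in 3 libraries, limma-voom (limma 3.58.1), a replicate block and each library left out.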

Additional observations from a re-analysis of the deposited data

How the results depend on the processing

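The log2 fold change of Eng lay between -1.64 and -1.50 and that of Htra1 between -1.29 and -1.25 over the 13 alternatives. Both stayed past the threshold in each. As both were chosen for their fall in these same libraries, this describes the processing and is no further support for the fall. The other 8 genes did not pass in any but the fit without Ctrl replicate 1, in which Tgfbr1, Tgfbr2 and Smad3 passed. Of the 40 further pathway genes that passed, 26 kept their call in every alternative that tested them and 14 lost it in at least 1, of which 7 lost it only when a library was left out. With 1 library left out, between 5 and 11 of the pathway genes were higher and between 23 and 32 lower. Over all genes the counts then lay between 663 and 1708 higher and between 1071 and 1820 lower, the fewest higher without KAT7KO replicate 2 and the fewest lower without KAT7KO replicate 2 or 3. The higher count moved by over 1.5 times without Ctrl replicate 2 or any 1 KAT7KO library, and the lower count without KAT7KO replicate 2 or 3. Under the other alternatives 6 to 9 pathway genes were higher and 28 to 36 lower. The labels do not say that replicate numbers pair libraries, and same-numbered libraries did not deviate together (correlations of -0.00436, 0.00587 and 0.0213). With the replicate block 1290 genes were higher and 1522 lower, and 7 and 31 of the pathway genes. Changes in genes near 1 CPM, such as Smad9 and Lrrc32, rest on few counts.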
